A study of Mus musculus with 4 samples.

Results

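Collagens are proteins of 3 chains wound into a triple helix, and each chain has a gene of its own. The collagen genes outside the hemidesmosome were taken as the protein-coding mouse genes whose symbol is Col, a number, the letter a and a number, without Col17a1 and Col7a1. There were 42 such genes among 21887 protein-coding genes of the RefSeq annotation. Chromatin immunoprecipitation followed by sequencing located p63, a transcription factor needed to form and renew stratified epithelia, in cells of dorsal skin epidermis taken at postnatal day 0 and parted from the dermis with Dispase. The samples were wild type (WT) or carried the genotype labelled p63 alphaKO (alphaKO); the sources used here give no account of that allele, the strain, the sex or the number of animals. Each genotype had 1 ChIP library, made with the antibody EPR570, and 1 input library, which was not used here. Since neither genotype was replicated, WT and alphaKO values are set side by side without a test. The lists held 10616 WT and 14593 alphaKO peaks, and their read depth is unknown. A peak list holds no transcript levels, so neither the cell types in the samples nor the expression of a collagen gene could be checked.

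Collagens fall into classes by how their trimers assemble. Fibrillar collagens build the rope-like fibrils of the dermis, bone and cartilage, and collagens of the type IV network form the sheet of the basement membrane on which the epidermis rests. Fibril-associated collagens (FACIT) sit on fibril surfaces, and others form beaded filaments or hexagonal nets, span the membrane, or carry glycosaminoglycan chains in basement membrane zones (multiplexins). Most of the collagen of skin is made by dermal fibroblasts, while basal keratinocytes add chains to the basement membrane.

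A gene was called marked when it held a peak summit, or had one at most 10 kb beyond either end. Fold enrichment is the authors' ratio of the pileup at a peak's summit to the caller's local background; it describes a peak within its own list. Peaks of the lists that shared at least 1 bp were called partners. Intervals are 95% Wilson intervals and cover counting error only.

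p63 peaks marked 14 collagen genes in WT and 23 in alphaKO, with 13 marked in both lists. The WT share was 33.3% (21.0 to 48.4), beside 26.4% of all protein-coding genes, and the alphaKO share was 54.8% (39.9 to 68.8), beside 30.6%. Marking in both lists applied to 31.0% of the collagen genes (19.1 to 46.0) and to 20.3% of all genes, most of which are shorter. Only Col11a2 was marked in WT alone (2.38%, beside 6.01% of all genes), and 10 were marked in alphaKO alone (23.8%, beside 10.3%). The remaining 18 genes, among them those of type I and type III collagen, were marked in neither list.

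Collagen genes are long, with a median of 118 kb beside 17.2 kb for all protein-coding genes, and long genes hold more summits. When each collagen gene was given the share of marked genes among other genes of its length, in 20 length bins, the counts to set beside the observed ones were 17.1 in WT and 21.7 in alphaKO. The observed 14 was below and the observed 23 above these values, and the Wilson intervals of both shares held the length-based shares of 40.7% and 51.6%. For marking in both lists the length-based count was 14.8 (35.1%), above the observed 13. For marking in alphaKO alone it was 6.94 (16.5%), below the observed 10 and inside the interval of 13.5 to 38.5. For marking in WT alone it was 2.35, beside the single gene observed. Of the 13 collagen genes under 50 kb, 2 were marked in WT and 4 in alphaKO; of the 18 from 50 to 150 kb, 8 and 10; and of the 11 over 150 kb, 4 and 9. Other genes of these bands were marked in 21.8%, 39.4% and 48.3% of cases in WT and in 23.8%, 48.8% and 66.4% in alphaKO. Each of these 6 shares of other genes lay inside the Wilson interval of the collagen share of the same band and list.

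**Figure D1:**
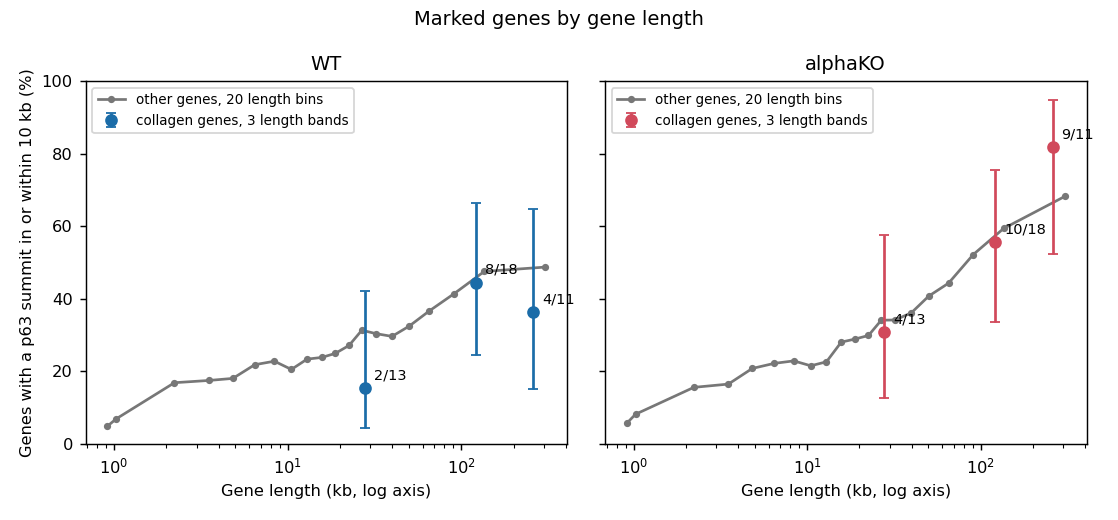
Share of genes with a p63 summit in the gene or within 10 kb (vertical axis, percent) against gene length (kb, log axis), for WT and alphaKO. The grey line joins other protein-coding genes in 20 length bins, and coloured points are collagen genes in 3 length bands, drawn at their median length, with 95% Wilson intervals and counts; the grey line crosses all 6 intervals.

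The promoter of Col16a1, the gene of a fibril-associated chain, is shown because it was the sole collagen start window with a summit in the 250 bases before the start. RefSeq (GRCm38.p6; mm10 is the browser name of GRCm38) gave start windows for 33 of the 42 genes, 36 windows in all. The 250 bases before the Col16a1 start, chr4:130047590-130047839 on the plus strand, held the summits of both lists, 214 bp (WT) and 219 bp (alphaKO) before the start. Capitals mark matches to CNNGNNNNNNCNNG, a loose form of the p53 family recognition pattern that reads the same on both strands.

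Col16a1 promoter: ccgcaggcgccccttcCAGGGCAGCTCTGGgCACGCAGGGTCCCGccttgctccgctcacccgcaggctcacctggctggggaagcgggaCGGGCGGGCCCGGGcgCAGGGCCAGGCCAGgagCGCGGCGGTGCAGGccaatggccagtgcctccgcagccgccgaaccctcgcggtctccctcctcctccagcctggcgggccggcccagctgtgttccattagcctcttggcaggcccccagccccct

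The window held 5 matches, and both summits lay in the second of them, at base 37 (WT) and base 32 (alphaKO) of the window. The pattern is common: 63.5% of all 32851 windows of this length held it, as did 28 of the 36 collagen windows. Among all windows with a summit, 93.2% in WT and 95.7% in alphaKO held it; base composition was not held fixed. The stricter p53 family half-site was not among these 250 bases; 7.13% of all windows and 3 of the 36 collagen windows held it. A match describes letters in a window and does not show a bound site.

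**Figure D2:**
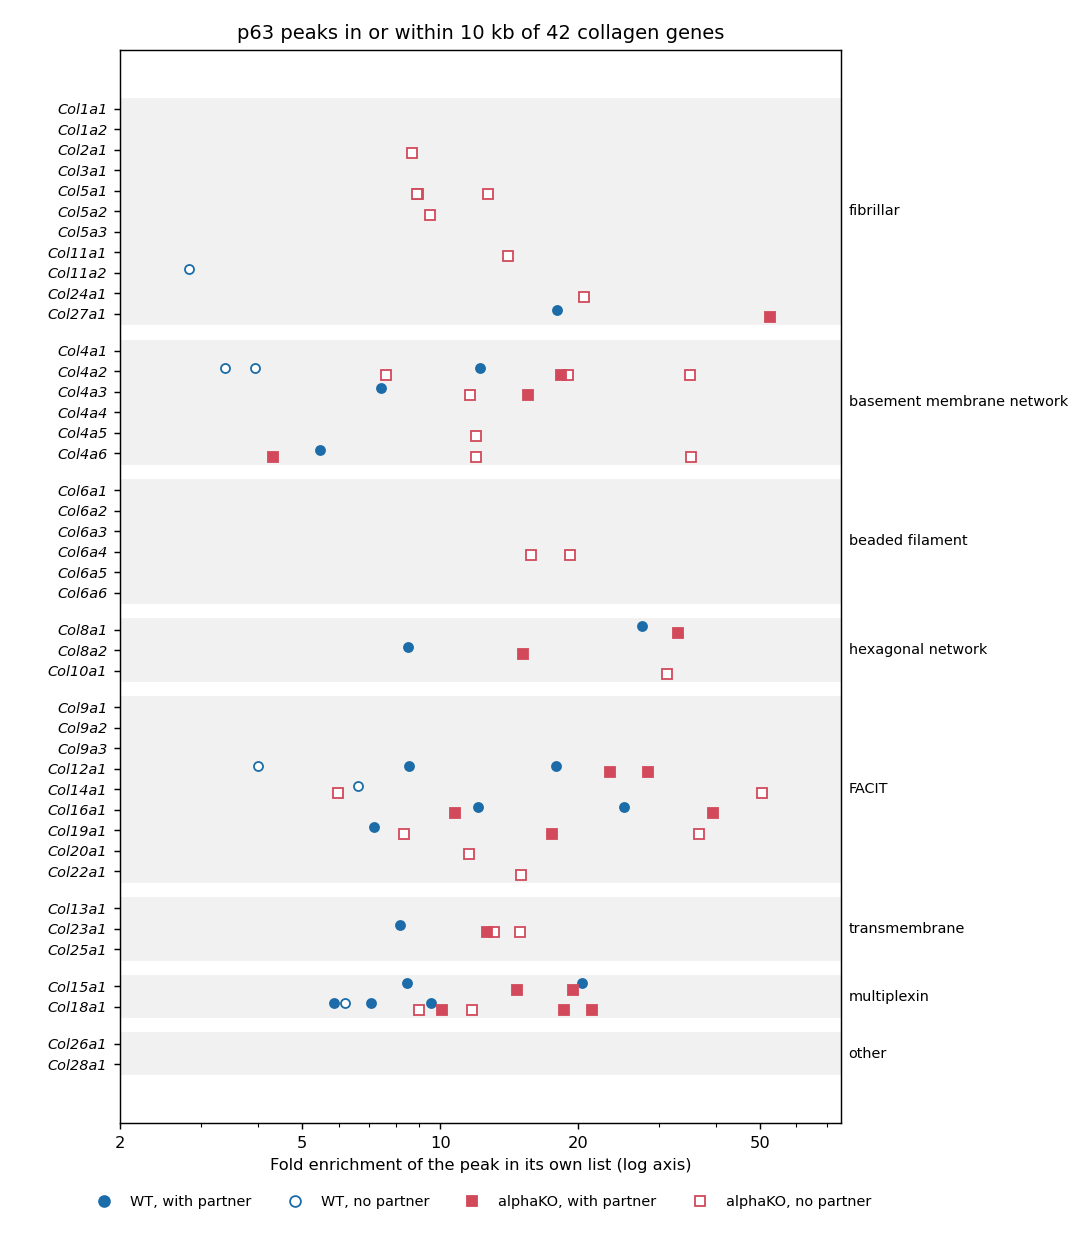
Fold enrichment (log axis) of every p63 peak in or within 10 kb of the 42 collagen genes, grouped by class; circles are WT peaks, squares alphaKO peaks, filled where the other list had a partner. The 18 empty rows are genes without a peak, including Col1a1, Col1a2 and Col3a1, and the highest point is the alphaKO peak of Col27a1 (52.6).

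Of the 11 fibrillar genes, 2 were marked in WT and 6 in alphaKO, with 1, Col27a1, in both and 5 in alphaKO alone. The length-based counts were 4.19 in WT, 5.24 in alphaKO and 1.72 in alphaKO alone, and counts this small describe the genes and are not read as a property of the class. Col1a1 and Col1a2, the chains of type I collagen and the main fibrils of the dermis, had no peak in either list, nor did Col3a1, the chain of type III collagen, or Col5a3. The nearest summits to Col1a1 were 40.1 kb (WT) and 35.5 kb (alphaKO) away, to Col1a2 229 and 199 kb, and to Col3a1 289 and 118 kb.

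Col27a1, which encodes a fibrillar chain best known from cartilage, had the strongest collagen peak of the alphaKO list. Its summit lay 8.81 kb past the gene's end in both lists, in no other protein-coding gene (chromosome 4, 63343602 to 63344566 in WT). The pileup was 161 in WT, with a fold of 17.95 and rank 1795 of 10616, and 467 in alphaKO, with a fold of 52.6 and rank 1106 of 14593. The other fibrillar sites were weaker. Col24a1 had a fold of 20.6 (pileup 153) in alphaKO, and Col11a1, a chain of cartilage fibrils, had 14.03 (115). Col5a1 and Col5a2, chains that control the thickness of type I fibrils, carried 3 alphaKO peaks with folds of 8.92, 8.94 and 12.7, and 1 of 9.52. Col2a1, the chain of type II collagen of cartilage, had an alphaKO peak of fold 8.68 located 1.22 kb from an end of the gene. None of these 7 alphaKO peaks had a WT partner. The single WT peak at Col11a2 (fold 2.82, pileup 37, −log10 q 5.51) lay 7.06 kb before that gene and inside its neighbour Rxrb. It had the lowest fold of the WT collagen peaks and was lost at −log10 q of at least 10, so no collagen gene was then marked in WT alone. Neither WT peak of a fibrillar gene lay within the gene's body.

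The type IV genes stand in 3 head-to-head pairs, and in each pair the summits inside the genes lay in 1 gene only. Sites were few, with 1 WT site in Col4a3 and 1 in Col4a6, and a single site can lie in 1 gene only. No other gene pairs were compared, so the layout is not read as a property of these genes. Marked were 3 of the 6 genes in WT and 4 in alphaKO, beside length-based counts of 2.88 and 3.74. Col4a1 and Col4a2 encode the chains found in nearly all basement membranes. Col4a2 had 3 WT and 4 alphaKO peaks, all inside the gene, while the 114 kb of Col4a1 held none. The nearest WT summit to Col4a1 was 61.0 kb away, inside Col4a2, and the nearest alphaKO summit was 21.8 kb away on the side that faces away from Col4a2. The Col4a2 lists met at 61.1 kb from the gene's start (chromosome 8, 11373742 to 11374061 in WT), where the pileup was 119 with a fold of 12.2 in WT and 160 with 18.4 in alphaKO. The strongest alphaKO site of the gene, 77.4 kb from the start (11389945 to 11390414), had a pileup of 289 and a fold of 35.1 and no WT partner. Further alphaKO sites at 30.5 and 97.7 kb had folds of 19.0 and 7.61. Both other WT sites, at 80.6 and 99.1 kb, were weak (folds 3.95 and 3.39, −log10 q 9.85 and 4.28) and had no alphaKO partner.

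Col4a3 and Col4a4, chains of kidney and other specialised basement membranes, had their few sites in Col4a3. In Col4a3 a site was listed in both libraries with summits at the same base (chromosome 1, 82674285), with folds of 7.44 in WT and 15.6 in alphaKO, and a second site of fold 11.6 in alphaKO alone. Col4a4 had none, and its nearest summit lay 19.2 kb away in both lists. Col4a5 and Col4a6, whose chains form a network in the epidermal basement membrane, carried their sites in Col4a6. A site 85.4 kb from the Col4a6 start (chromosome X, 141388486 to 141388890) had a pileup of 170 and a fold of 35.3 in alphaKO and no WT partner. The site shared by the lists, 34.5 kb (WT) and 34.8 kb (alphaKO) from the start, had folds of 5.46 and 4.32, and its summits lay 289 bp apart, the widest spacing among shared collagen sites. An alphaKO peak of fold 11.96, 5.99 kb inside Col4a6, was within 10 kb of Col4a5 as well and is the sole peak that marked that gene. Whether the sites on one side of a pair act on the other gene cannot be read from peak positions.

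**Figure D3:**
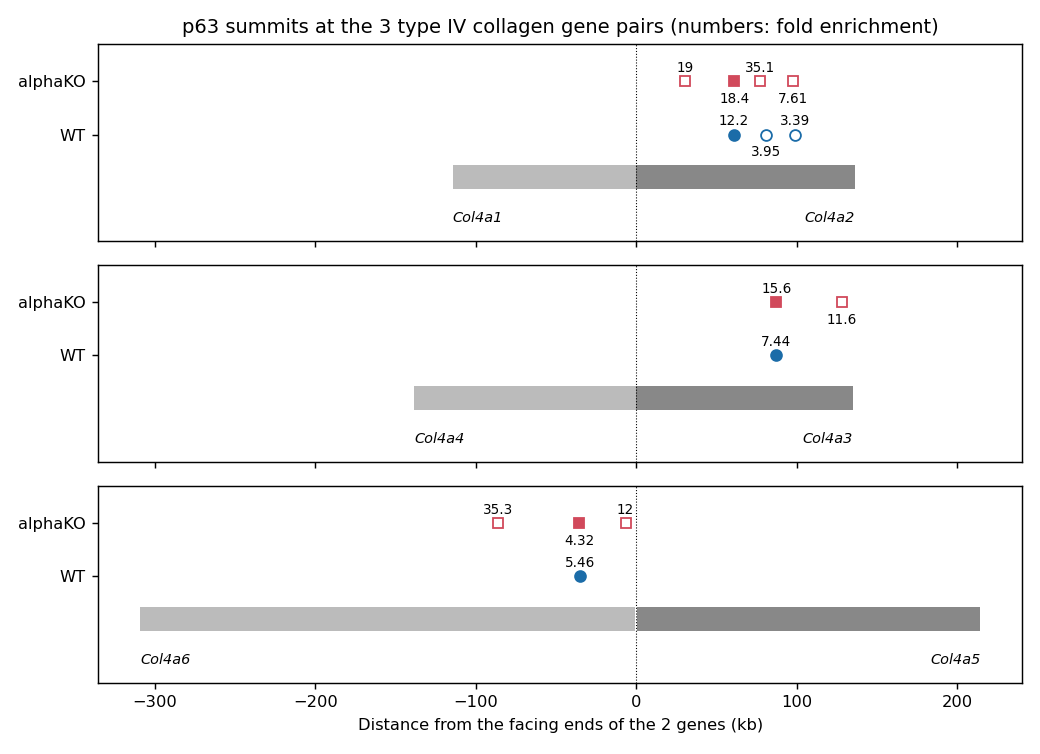
Summits of p63 peaks along the 3 pairs of type IV collagen genes, drawn as distance in kb from the facing ends of the pair, with the genes as grey bars and the fold of each peak as a number. Circles are WT and squares alphaKO, filled where the other list had a partner; summits lie in Col4a2, Col4a3 and Col4a6, with none in Col4a1, Col4a4 or Col4a5.

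Of the 6 genes of type VI collagen, which forms beaded filaments around cells, only Col6a4 was marked, and only in alphaKO, beside length-based counts of 2.28 in WT and 2.79 in alphaKO. Its peaks lay 84.6 and 71.2 kb from the gene's start, with folds of 15.8 and 19.2 and pileups of 84 and 105. Col6a1, Col6a2 and Col6a3, the chains of the main trimer, had their nearest summits 52.9 kb or more away in WT and 136 kb or more in alphaKO. The further chains Col6a5 and Col6a6 had alphaKO summits 49.7 and 14.2 kb away.

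Of the 3 genes of the hexagonal network, 2 were marked in WT and 3 in alphaKO, beside length-based counts of 1.01 and 1.16. They included the strongest WT peak of any collagen gene. Col8a1, which encodes a short chain of vessel walls and of the corneal Descemet membrane, carried it 7.22 kb inside its start (chromosome 16, 57747276 to 57747746). The pileup there was 271 in WT, with a fold of 27.7 and rank 746, and 384 in alphaKO, with a fold of 33.0 and rank 2673. Col8a2, the partner chain, had a shared site 6.83 kb past its end, inside Adprhl2, with folds of 8.51 and 15.1. Col10a1, a chain of hypertrophic cartilage, had an alphaKO peak of fold 31.3 (pileup 167) that lay 2.73 kb before the gene and inside Nt5dc1, with no WT partner. With summits limited to gene bodies, Col8a1 alone of these 3 was marked.

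Of the 9 fibril-associated genes, 4 were marked in both lists and 2 more, Col20a1 (fold 11.6) and Col22a1 (15.1), in alphaKO alone, beside length-based counts of 3.44 in WT and 4.41 in alphaKO. Col16a1 had the same pair of sites in both. That in its promoter had a pileup of 93 and a fold of 12.1 in WT and 75 with 10.8 in alphaKO. The stronger site, 3.38 kb inside the gene (chromosome 4, 130050966 to 130051363), had a pileup of 212 and a fold of 25.3 in WT and 250 with 39.5 in alphaKO. Col12a1, whose chain links fibrils, also had a pair of shared sites in its body. The first (chromosome 9, 79648696 to 79649185 in WT) had folds of 17.9 and 28.5, and the second (79655062 to 79655369 in WT) 8.57 and 23.5. A WT peak of fold 4.00 in the gene, 2.45 kb from its other end, had no partner.

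Col19a1 and Col14a1 held strong sites seen in alphaKO alone. In Col19a1, whose chain is found at basement membrane zones, the lists met 76.2 kb from the start (folds 7.15 in WT and 17.5 in alphaKO). A stronger alphaKO site lay 29.9 kb from the start (chromosome 1, 24557271 to 24558211, pileup 269, fold 36.8), and a weaker one had a fold of 8.33. Col14a1 was marked in both lists but at no common site. Its alphaKO peak at chromosome 15, 55370228 to 55370758, with a pileup of 405 and a fold of 50.4, ranked 1216 in its list and was the strongest collagen site without a partner. The WT peak of the gene had a fold of 6.60 (pileup 37), and the other alphaKO peak 5.99 (34). Col9a1, Col9a2 and Col9a3, the chains of type IX collagen of cartilage, were marked in neither list.

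Both multiplexin genes were marked in both lists, beside length-based counts of 0.889 and 1.12. Col15a1 had 2 shared sites. At the first (chromosome 4, 47251195 to 47251967), 44.1 kb from the start, the pileup was 220 with a fold of 20.4 in WT and 141 with 19.5 in alphaKO, 1 of 3 shared collagen sites with the lower fold in alphaKO. The second, 2.21 kb before the gene's end, had folds of 8.48 and 14.7. Col18a1, the source of the fragment endostatin, carried the most peaks, 4 in WT and 5 in alphaKO. A shared site lay 1.61 kb before its outer start in WT (folds 7.05 and 18.6). Others lay 0.39 kb (folds 5.85 and 21.5) and 1.74 kb (9.57 and 10.1) past an inner annotated start. A WT site of fold 6.19 and alphaKO sites of fold 11.7 and 8.99 had no partner.

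Of the 3 transmembrane collagens, 1 was marked in each list, beside length-based counts of 1.45 and 1.96. Col23a1 had a shared site 0.619 kb past its end (folds 8.15 and 12.7) and alphaKO sites of fold 13.1 and 14.9 inside the gene, 221 and 223 kb from its start. Col13a1 and Col25a1 were unmarked, as were Col26a1 and Col28a1. The nearest summits to Col25a1, the longest of the genes at 419.5 kb, were 126 kb outside it in both lists.

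With 5 kb flanks, 11 collagen genes were marked in WT and 20 in alphaKO, when 22.6% and 26% of all genes were. The length-based counts were then 16.1 and 20.4. The farthest site that marked a gene was that of Col27a1 at 8.81 kb, and the closest that did not were at 14.2 kb from Col6a6 and 15.4 kb from Col5a3, both in alphaKO, and at 19.2 kb from Col4a4 and 19.8 kb from Col26a1, in both lists. Within 50 kb, 19 collagen genes had a WT and 30 an alphaKO summit, when 47.1% and 55.1% of all genes did and the length-based counts were 23.3 and 28.5. Within gene bodies alone the counts were 10 and 19, when 15.7% and 19.5% of all genes were marked. The length-based counts were 13.9 and 18.6, with the WT count below and the alphaKO count above them, and neither gap was tested.

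**Figure D4:**
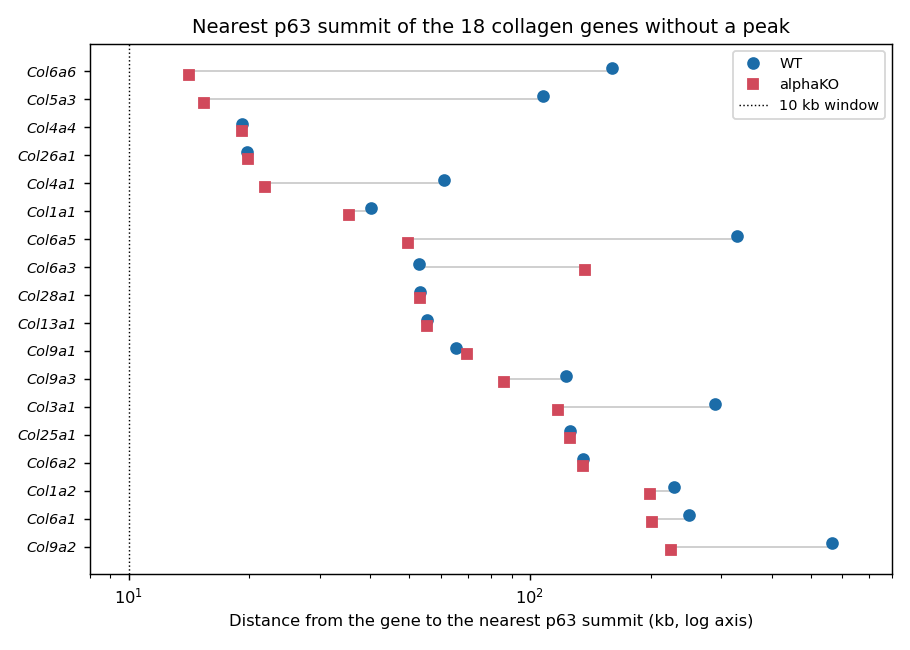
Distance in kb (log axis) from each of the 18 unmarked collagen genes to the nearest p63 summit of the WT (circles) and alphaKO (squares) list; the dotted line is the 10 kb window. Distances run from 14.2 kb (Col6a6, alphaKO) to 566 kb (Col9a2, WT).

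Counted as sites, the collagen windows held 23 WT and 43 alphaKO summits in 6.13 Mb. That was 3.75 WT summits per Mb (exact Poisson interval 2.38 to 5.63, counting error only) and 7.01 alphaKO summits per Mb (5.07 to 9.44). Windows of all other protein-coding genes held 5.78 and 7.36 per Mb, the WT value above the collagen interval and the alphaKO value inside it. Among genes of 50 kb or more, the 29 collagen genes had 3.80 (2.35 to 5.81) and 7.06 (5.02 to 9.65) per Mb, beside 4.69 and 6.69 for 4916 other genes, and both of the latter lay inside the collagen intervals.

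Of the 23 WT summits, 17 had an alphaKO partner (73.9%, 53.5 to 87.5), beside 66.6% of all WT peaks. Of the 43 alphaKO summits, 17 had a WT partner (39.5%, 26.4 to 54.4), beside 48.4% of all alphaKO peaks. Both shares for all peaks lay within the intervals of the collagen peaks. The collagen peaks had a median fold of 8.15 in WT and 15.1 in alphaKO, beside 8.44 and 15.5 over all peaks. Their maximum was 27.7 in WT, where the list reached 167, and 52.6 in alphaKO, where it reached 382. Peaks with a partner had a median fold of 8.57 in WT and 18.4 in alphaKO, and those without 3.97 and 12.9. The same medians over all peaks were 11.5 and 21.0 with a partner and 4.79 and 12.8 without.

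At the 17 shared collagen sites the summits lay a median of 5 bp apart, beside 8 bp over all 7066 shared WT sites. The alphaKO fold was the higher value at 14 of the 17 (82.4%), as at 83.7% of all shared sites, with a median ratio of 1.59 beside 1.69 over all. The widest ratios were at Col18a1 (3.68), Col27a1 (2.93) and the second Col12a1 site (2.74). The sites lower in alphaKO were the weak Col4a6 site (0.792), the Col16a1 promoter (0.888) and the first Col15a1 site (0.951). The pileup ratio had a median of 1.42 at the collagen sites and 1.40 over all. The part that read depth played in these ratios was not tested.

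**Figure D5:**
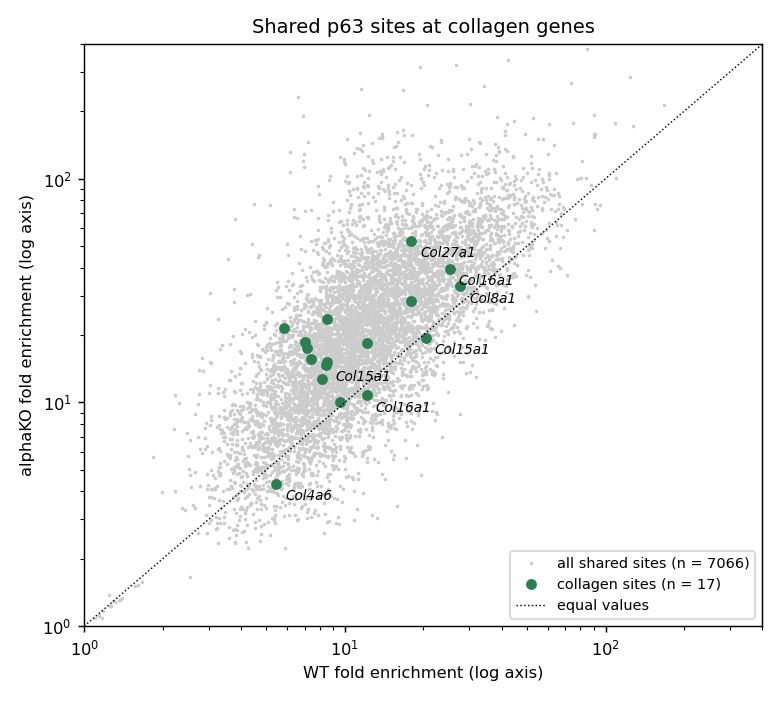
Fold enrichment in WT (horizontal) and alphaKO (vertical), both on log axes, at 17 shared collagen sites (green) and at all 7066 shared sites (grey); the dotted line marks equal values. Of the collagen sites, 14 of 17 lie above the line.

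Most collagen summits lay within gene bodies, which also made up most of the area searched. The median collagen gene was 118 kb long, and each flank was 10 kb. The shares of summits below were not set beside the share of that area inside genes. Inside a collagen gene lay 17 of the 23 WT summits (73.9%, 53.5 to 87.5) and 37 of the 43 alphaKO summits (86.0%, 72.7 to 93.4). Inside any protein-coding gene lay 82.6% (62.9 to 93.0) and 90.7% (78.4 to 96.3), beside 72.7% and 77.2% of all summits in or within 10 kb of a gene. Gene length was not held fixed in that comparison. Within 1 kb of an end of any protein-coding gene lay 5 WT (21.7%, 9.66 to 41.9) and 5 alphaKO summits (11.6%, 5.07 to 24.5). Over all summits in or within 10 kb of a gene, 25.3% in WT and 12.8% in alphaKO were that close to a gene end. Ends of collagen genes themselves accounted for 2 WT summits (Col16a1 and Col23a1) and 3 alphaKO summits (those genes and Col5a1).

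Col17a1 and Col7a1, the collagens of the hemidesmosome and of the anchoring fibril, were the nearest relatives for comparison, and both were marked in both lists. Col17a1 is 45.7 kb long and had 5 WT and 4 alphaKO peaks, the strongest (folds 15.5 and 21.7) at an end of the gene. Col7a1, 31.3 kb long, had 1 peak in each list (18.6 and 44.5), 4.11 kb outside the gene in WT. Of the 13 other collagen genes under 50 kb, only Col8a2 was marked in both, by a site 6.83 kb outside the gene in WT. Over all protein-coding genes, of any length, 20.3% were marked in both. With 2 genes on one side, no difference was tested.

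A further 47 genes have products that fold, trim, cross-link, bind or degrade collagen, or that inhibit its degradation. Of these, 19 were marked in WT and 27 in alphaKO, beside 26.4% and 30.6% of all genes. The counts based on gene length were 14.9 and 17.8, below the observed ones. These lists were chosen with earlier results of these data known, and neither gap was tested. By list, the length-based counts for WT and alphaKO were 4.84 and 5.52 for folding and modification, 3.21 and 4.16 for propeptide removal, and 1.87 and 2.19 for cross-linking. They were 2.99 and 3.67 for receptors and 2.00 and 2.28 for degradation. With summits limited to gene bodies, 14 and 19 of the 47 genes were marked, when 15.7% and 19.5% of all genes were. Gene length was not held fixed there. A pair of folds below belongs to a gene's strongest peak in WT and in alphaKO. For folding and modification, 8 and 11 of 17 genes were marked, and 6 in each list within gene bodies alone. P3h4, a partner of the lysyl hydroxylation complex, and its neighbour Fkbp10, a prolyl isomerase, shared a peak outside both, 1.27 kb from P3h4 in WT (35.7 and 62.3). Colgalt1, a collagen galactosyltransferase, had 25.9 and 21.4, and the lysyl hydroxylase genes Plod3 (34.4) and Plod2 (12.7) were marked in alphaKO only.

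Of 8 genes for the removal of propeptides, 2 and 3 were marked. Adamts2 and Adamts14, which encode proteases that remove the amino propeptides of procollagen, held the strongest alphaKO sites of these lists, while Adamts3, which encodes a related protease, had no peak in either. Adamts2 had 1 shared site with folds of 12.4 in WT and 193 in alphaKO, and Adamts14 had 38.3 and 189. Tll1, a tolloid protease (15.8), was marked in alphaKO only, and Bmp1, Tll2, Pcolce and Pcolce2 in neither list. Cross-linking genes had a peak in 1 of 6 cases in each list, Loxl3 in WT (5.61) and Lox in alphaKO (13.8). Of 8 receptor genes, 4 and 7 were marked. The discoidin domain receptor genes Ddr1 (40.8 and 60.9) and Ddr2 (19.7 and 29.8) and the integrin gene Itga11 (24.3 and 52.6) were marked in both, and Itgb1 (31.0) and Itga2 (10.7) in alphaKO only. Of 8 genes of degradation, 4 and 5 were marked, led by the inhibitor gene Timp3 (22.7 and 28.4) and the proteases Mmp2 (18.4 and 35.0) and Mmp14 (16.7 and 45.7), with Mmp9 (9.77) in alphaKO only.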

How the data were processed

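The submitters' processing notes name the aligner Bowtie2, the peak caller MACS2 (2.1.1.20160309) and the build mm10. Options, control libraries, duplicate handling and the Bowtie2 version are not given in the sources. For each peak the authors deposited, per the file headers, a pileup at the summit (coverage signal), −log10 of the p-value and of the q-value, and a fold enrichment (ratio). Each list came from 1 library. WT peaks had −log10 q of 1.31 or more, alphaKO peaks of 1.36 or more. Depth per sample is unknown. Wilson and Poisson intervals rest on counts of genes or peaks, not of reads, and hold counting error alone. Without molecular identifiers, the reads behind a pileup are not separate molecules.

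Genes came from a RefSeq table (GRCm38.p6), and strand from RefSeq start windows, which covered 33 of the 42 collagen genes. Length-based counts sum, over members, the share of other genes marked in the same of 20 length bins. Members, classes and pathway lists were chosen with earlier results of these data known. All collagen genes were accounted for, and described in full were those with the 12 strongest peaks or the 5 strongest without a partner in a list; of each pathway list, up to 3 genes marked in both and 2 marked in a single list were named. Nearest-summit distances of unmarked genes were added after their values were seen. Alternatives changed the flank, the peak threshold, list length, gene assignment, the overlap rule and the length bins. Gene assignment was tested on summits planted in known genes, and the partner call on WT peaks shifted by a known distance. Other steps were not tested in this way. The code ran in Python 3.11.15 with pandas 2.3.3, NumPy 2.4.6 and SciPy 1.17.1, and figures were drawn with matplotlib 3.10.9.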

Additional observations from a re-analysis of the deposited data

How the results depend on the processing

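Under the alternatives, 71 recomputed main values moved by less than their interval or by at most 1.5 times. The 5 others, where peaks or windows are fewer or each summit is given to 1 gene, concern the single gene marked in WT alone, Col11a2: the count was 0 with gene bodies only, with 5 kb flanks, at −log10 q of at least 10, at a fold of at least 5, and with each summit given to its nearest gene only. For single classes and pathway lists, 46 comparisons stayed and 10 moved, 9 of them with gene bodies only, where the fibrillar genes marked in WT fell from 2 to 0. The share of collagen peaks with a partner ran from 65.2% to 84.2% in WT and from 32.4% to 45.5% in alphaKO. With equal list lengths 14 and 21 collagen genes were marked, beside 26.4% and 24.8% of all genes, and gene length was not held fixed there. No collagen count changed without peaks of a background above 50. With 1 library per genotype no replicate could be left out. No paired analysis was possible because each genotype had 1 ChIP library. Peaks below each list's threshold are not seen.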
